A study of Mus musculus with 25 samples.

Results

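Birth was followed here by comparing mouse livers of the newborn with livers of the late fetus. The newborn side held the pool of the day of birth (Day0) and the pool of postnatal day 3 (Day3). The late fetal side held the pools of embryonic days 16.5 and 17.5 (E16.5 and E17.5). These are 8 of the 25 arrays and 4 of the 14 pools of the series, chosen by their stage labels, with 4 arrays and 2 pools on each side and with the day before birth (E18.5) left out. Each of the 4 pools joined the livers of 3 C57/B6 mice, a strain that every group shared, with no treatment and no altered allele named. The 2 arrays of a pool are technical repeats, so a stage was measured once, and the 2 stages of a side stand in as its replicates. The series as a whole followed liver development from embryonic day 11.5 to adult mice of 18 weeks on Affymetrix arrays. The values are intensities, used here as log2, so that a difference of 1 is a 2-fold difference.

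The liver has different tasks before and after birth. Before birth the placenta supplies glucose and the liver is a main site of blood formation. After birth the glucose supply stops, glucagon rises and insulin falls, and the liver makes glucose from lactate, glycerol and amino acids, while the fat of milk is oxidised and turned into ketone bodies. Blood formation moves to the bone marrow over the same period, and the hepatocytes take on bile acid transport, drug metabolism and the secretion of the adult plasma proteins.

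The 8 arrays had similar medians, from 5.45 to 5.51 log2 units, and the repeats of a pool correlated across genes at r = 0.989 to 0.996. Technical repeats differed by a standard deviation of 0.128 and 0.129 log2 units at E16.5 and E17.5 and of 0.21 and 0.216 at Day0 and Day3. On the same measure, the standard deviation between the 2 pools of a side was 0.177 for the late fetal and 0.277 for the newborn pools. The difference between the side means had a standard deviation of 0.444 over genes. Each side mean joins 2 pools, so independent pool spread alone would give their difference the standard deviation of a single pool. The value of 0.444 is therefore on the same scale as 0.177 and 0.277. The liver marker Alb, which encodes serum albumin, read 13.70 to 14.17 in the late fetal arrays and 13.77 to 14.32 in the newborn arrays. Marks of sex moved with the comparison. Eif2s3y, a translation factor gene on the Y chromosome, read 8.14 and 7.70 at E16.5 and 8.04 and 7.70 at E17.5, against 4.1 to 4.19 in the newborn arrays. Xist, the RNA that silences an X chromosome in female cells, read 7.20 to 7.94 in the late fetal arrays and 9.96 to 10.54 in the newborn arrays. Its 3 probe sets differed by 0.98 to 5.86. Another of them read 4.46 and 4.52 at E16.5 and E17.5, against 9.93 and 10.77 at Day0 and Day3. The sex of the livers is not in the labels. The E15.5 pool read 4.14 for Eif2s3y and 11.12 for the first Xist set. As these marks split by side, sex and stage cannot be told apart in the 4 pools. The part of sex in the other differences was not tested.

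Across 18194 genes, limma on the 4 pool means called 1 gene, or 0.0055%, at a Benjamini-Hochberg adjusted p under 0.05 and a difference of at least 1 log2 unit. That gene was Eif2s3y, which fell by 3.73 log2 units (SE 0.06, adjusted p = 0.0239), and 12 of its alternative settings ended the call. The next lowest adjusted p was 0.0843, and 3374 genes had an unadjusted p under 0.05. With 2 pools a side an exact permutation test of a single value cannot go below a two-sided p of 0.333. The differences between the sides are therefore described by a second measure without a test. A gene was counted as set apart where all 4 newborn arrays lay above, or all below, all 4 late fetal arrays and the side means differed at least 2-fold. By that count 445 genes (2.45%) were higher and 123 (0.676%) were lower in the newborn, so that 78.3% of the 568 genes set apart were higher. Equalising the arrays in other ways gave 363 higher and 203 lower genes (64.1% higher) with quantile normalization, 357 and 175 (67.1%) with equal housekeeping levels and 360 and 188 (65.7%) with equal spread. The median difference over all genes was -0.0017 log2 units.

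A further limma fit used all 14 pool means in 7 age windows, with the same newborn and late fetal windows, and took the spread from every window that held more than 1 pool. It called 106 genes higher (0.583%) and 13 lower (0.0715%) in the newborn, and all 119 were also set apart. Below, "rose" and "fell" are used of genes called in this fit or in the fit on 4 pools, and all other genes are given by their values. A difference is the newborn mean minus the late fetal mean in log2 units, with the standard error (SE) of the fit on 4 pools, n = 2 pools a side. Each count of list members set apart over the 4 pools is to be read beside the shares over all genes, 2.45% higher and 0.676% lower. In a short list, 1 member set apart says little beside those shares. Counts with 1 pool left out or another scaling have their own totals over the 18194 genes. Those were 353 higher and 130 lower without E16.5, 754 and 164 without E17.5, 670 and 120 without Day0, and 618 and 205 without Day3. The totals with other scalings are given above. Because the test on 4 pools called 1 gene, the genes named below were taken from the lists and from the largest differences after their values were seen.

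**Figure D1:**
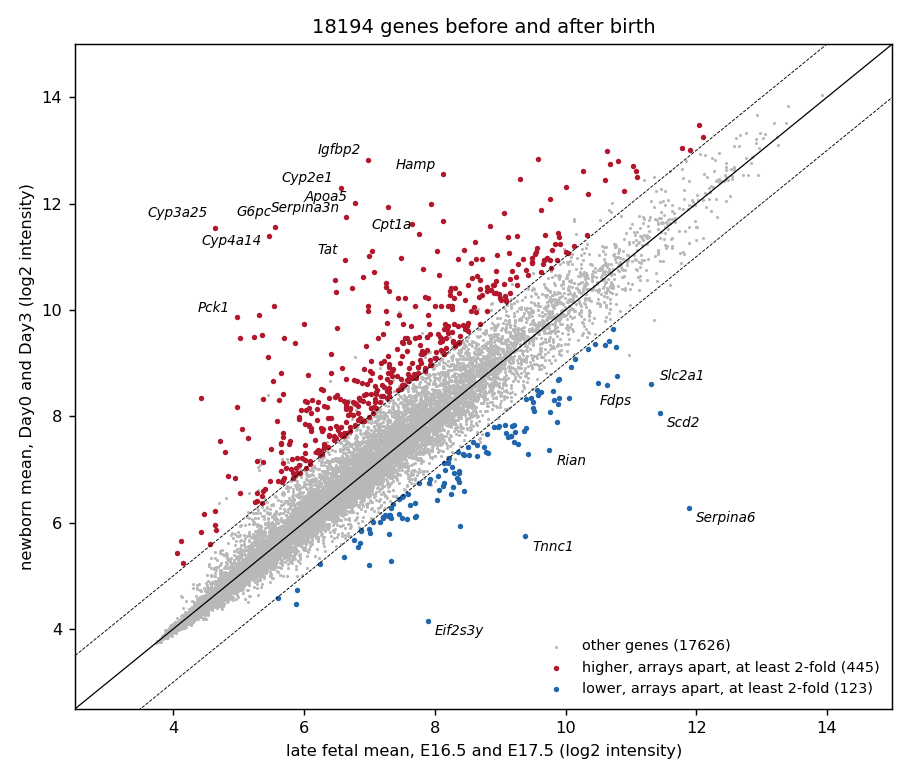
Newborn mean against late fetal mean for 18194 genes, both in log2 intensity. Red marks the 445 genes and blue the 123 genes whose arrays do not overlap between the sides and whose means differ at least 2-fold; the solid line is equality and the dashed lines are 2-fold. The red points reach much farther from the line, up to 6.89 log2 units for Cyp3a25, and Serpina6 lies farthest below it at -5.61.

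Genes of glucose production stood among the largest differences. Of 18 measured genes of gluconeogenesis and glucose release, 8 were set apart and higher and 0 lower, with a median difference of 1.14, and 3 of them rose. Without Day0 the median was 0.385. G6pc, the phosphatase that frees glucose for export, read 5.22 and 5.58 at E16.5, 5.56 and 5.88 at E17.5, 12.20 and 11.53 at Day0 and 11.51 and 10.99 at Day3. It lay near the array median in every late fetal array and far above it in every newborn array, a 63.9-fold difference of 6.00 ± 0.26. Pck1, which makes phosphoenolpyruvate from oxaloacetate, read 4.88 and 4.97, then 4.9 and 5.14 in the late fetal arrays, 11.12 and 10.55 at Day0 and 9.12 and 8.66 at Day3. Its difference was 4.89 ± 0.73, and 1 of its 3 probe sets differed by -0.02. At E15.5 G6pc read 5.40 and Pck1 4.88. Aqp9, the channel that lets glycerol into hepatocytes, rose by 3.00 ± 0.50, from 6.63 to 7.35 in the late fetal arrays to 9.13 to 10.82 in the newborn arrays.

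Other steps of the pathway were already rising or split by day. Fbp1, which removes a phosphate from fructose bisphosphate, read 9.48 and 9.32 at E16.5 but 11.97 and 11.78 at E17.5, against 12.55 to 13.28 in the newborn arrays, and was 7.23 at E15.5. Pcx, the pyruvate carboxylase, differed by 1.55 ± 0.45 and the glucose transporter Slc2a2 by 1.37 ± 0.32, with the same order of pools. Got1, the aspartate aminotransferase of the cytosol, read 13.05 and 12.51 at Day0 and 9.46 and 8.90 at Day3, against 6.77 to 8.20 in the late fetal arrays. The coactivator Ppargc1a, which drives gluconeogenic genes in fasting, was high at Day0 alone, with 7.75 and 7.95 there, 5.14 and 5.39 at Day3 and 4.98 to 5.25 in the late fetal arrays, so that its arrays overlapped. Slc37a4, which carries glucose 6-phosphate to G6pc, read 11.72 and 11.06 at Day0, but its Day3 arrays, 10.23 and 9.75, overlapped those of E17.5, 10.10 and 9.86.

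Glucose uptake and use stood lower or did not separate. Of 22 genes of glycolysis and glucose uptake 1 was set apart and higher and 1 lower, with a median difference of -0.24. The lower count was 3 without E16.5, Day0 or Day3, and the median -0.12 without E17.5. Slc2a1, the glucose transporter of fetal tissues and red cell precursors, read 10.92 to 11.64 in the late fetal arrays, 10.14 and 9.67 at Day0 and 7.43 and 7.20 at Day3, a difference of -2.69 ± 0.98. Most of that step lay between Day0 and Day3, within the newborn side. Pdk4, a kinase that blocks the entry of pyruvate into oxidation, read 10.47 and 10.12 at Day0, 6.98 and 7.05 at Day3 and 4.98 to 6.03 in the late fetal arrays. Hexokinase Hk1 differed by -0.58 ± 0.19 and was not set apart. None of the 14 genes of glycogen metabolism was set apart over the 4 pools, and 1 was higher and 2 lower without E16.5 or without Day3.

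**Figure D2:**
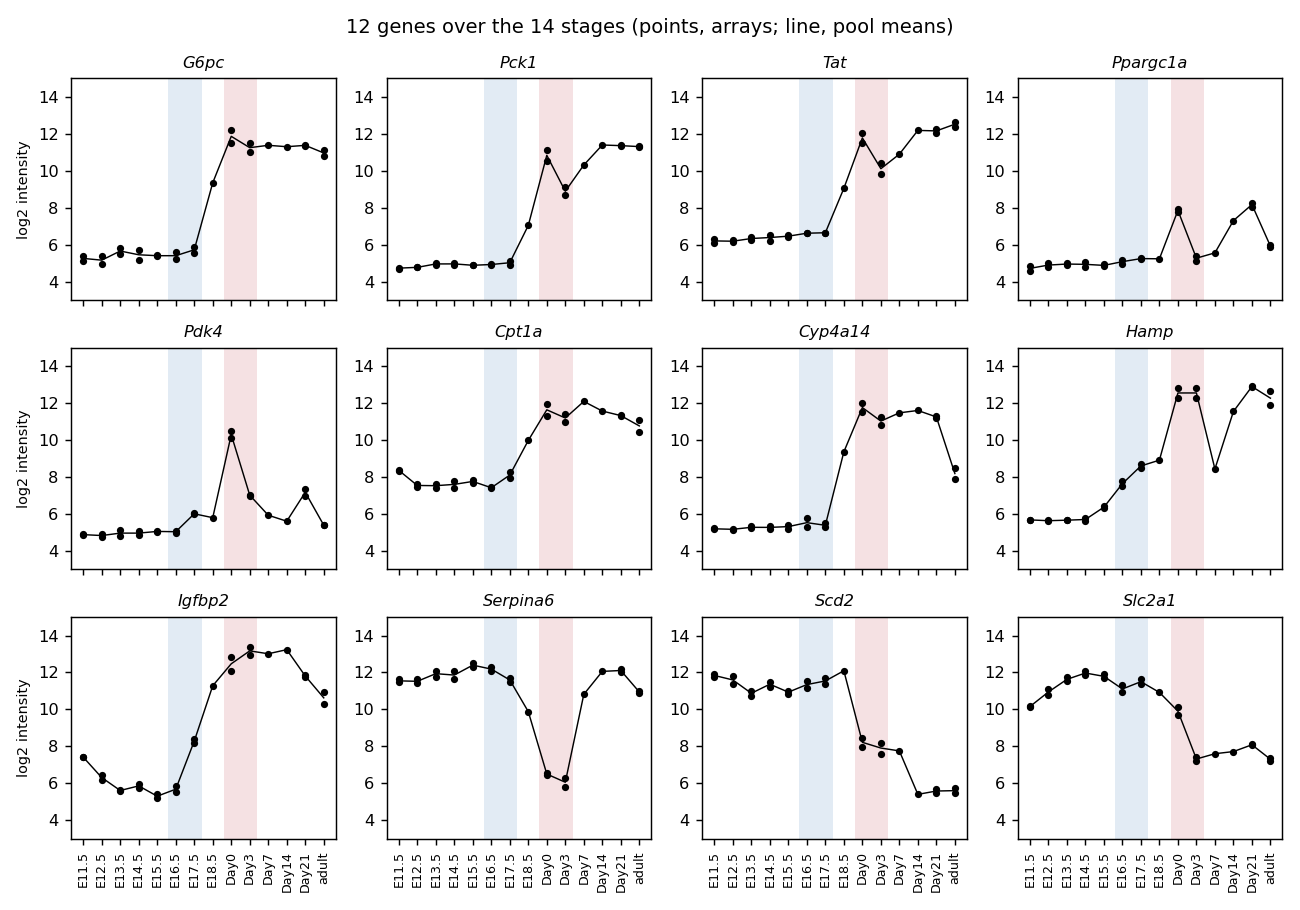
Log2 intensity of 12 genes over the 14 stages, with a point for each array and a line through the pool means; blue shading marks the late fetal pools and red shading the newborn pools. G6pc, Pck1, Tat and Cyp4a14 run flat up to E17.5 and are already raised at E18.5; Ppargc1a and Pdk4 stand high at Day0 and lower at Day3; Serpina6 is low in the newborn pools only.

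Pck1 and G6pc are textbook targets of glucagon through cyclic AMP, whose response element is TGACGTCA, with the short form TGACG. The promoters below, from 250 bases before to 50 bases after the start in RefSeq (GRCm38.p6), are shown because these genes stood higher together and differ in this motif. Capitals mark TGACG on either strand. Pck1 (chr2:173152823-173153122, plus strand) held 1 match, whose complement CGTCA begins 90 bases before the start. G6pc (chr11:101367466-101367765, plus strand) held 0. Dusp1 (chr17:26508423-26508722, minus strand), a phosphatase of MAP kinases, held the full element 143 bases before the start, which contains the short form on both strands with overlap, and a further short form at 191 bases.
Pck1: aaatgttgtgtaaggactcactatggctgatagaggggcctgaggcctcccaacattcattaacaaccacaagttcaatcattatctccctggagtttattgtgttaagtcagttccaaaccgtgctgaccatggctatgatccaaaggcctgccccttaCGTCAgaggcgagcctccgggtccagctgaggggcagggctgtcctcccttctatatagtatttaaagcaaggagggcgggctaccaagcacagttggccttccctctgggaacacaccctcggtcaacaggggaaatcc
G6pc: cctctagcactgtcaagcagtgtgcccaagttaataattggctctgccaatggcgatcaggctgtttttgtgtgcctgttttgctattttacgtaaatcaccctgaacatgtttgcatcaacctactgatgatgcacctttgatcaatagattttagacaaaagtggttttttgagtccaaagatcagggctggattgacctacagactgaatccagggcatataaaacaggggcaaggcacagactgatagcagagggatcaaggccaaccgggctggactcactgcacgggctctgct
Dusp1: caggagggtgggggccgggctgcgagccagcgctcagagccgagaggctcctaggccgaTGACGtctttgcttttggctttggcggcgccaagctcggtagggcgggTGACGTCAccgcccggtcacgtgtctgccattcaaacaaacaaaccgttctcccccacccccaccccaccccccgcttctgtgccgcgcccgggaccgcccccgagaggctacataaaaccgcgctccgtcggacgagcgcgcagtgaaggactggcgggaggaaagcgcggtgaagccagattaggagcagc
Of 31 RefSeq promoters of the glucocorticoid and cyclic AMP list, 14 (45.2%) held TGACG on either strand, against 20.8% of all 32851 promoters. The 31 promoters belong to 23 genes, of which 13 held a match. As the list was drawn up from genes known to respond, this share is no result about these livers. Matches lay in list genes set apart, such as Cebpb, Sgk1 and Klf9, and in others not set apart, such as Nr4a1, Per1 and Ppargc1a. Among promoters of genes set apart the share was 22.5% for higher and 23.2% for lower genes, both near the share of all promoters. TGACGTCA itself was in 1 of the 31 and in 1.79% of all. A match is a string of letters in this window and says nothing of binding in these livers.

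Genes of fat oxidation stood higher in the newborn, fewer of them set apart than overlapping. All 36 measured genes of fatty acid oxidation and ketogenesis had a positive difference, 15 were set apart and higher, 0 lower, the median was 0.98 and 9 rose. Cyp4a14, a fatty acid omega-hydroxylase and a target of the fatty acid receptor PPAR alpha, read 5.28 to 5.76 in the late fetal arrays, 12.02 and 11.50 at Day0 and 11.23 and 10.83 at Day3. It rose by 5.94 ± 0.28, a 61.3-fold difference. Cpt1a, which commits fatty acids to the mitochondrion, read 7.39 and 7.45 at E16.5, 8.27 and 7.94 at E17.5, 11.97 and 11.31 at Day0 and 11.41 and 10.98 at Day3, and rose by 3.65 ± 0.31. The next steps of the carnitine route differed less: the carrier Slc25a20 rose by 1.75 ± 0.11, and Cpt2, on the inner membrane, differed by 1.08 ± 0.07. In the peroxisome, Ehhadh rose by 3.65 ± 0.55 and Acaa1b, a thiolase, by 3.26 ± 0.64. In the mitochondrion Acadvl, the first enzyme for long chains, rose by 1.42 ± 0.18 and Etfdh, which passes the electrons on, by 2.05 ± 0.22.

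Signals that go with fasting and milk fat differed between the 2 newborn days. Angptl4, an inhibitor of lipoprotein lipase, read 11.45 and 10.83 at Day0, 9.22 and 8.83 at Day3 and 7.67 to 8.53 in the late fetal arrays. Fgf21, a fasting hormone of the liver, was at 5.10 and 5.28 at Day0, no higher than its late fetal 5.33 to 5.52, and at 7.36 and 6.79 at Day3, so that its arrays overlapped. Vnn1, a pantetheinase, was also higher at Day3, with 9.00 and 8.22, than at Day0, with 6.58 and 6.22, but was set apart on both days from its late fetal 5.20 to 5.97. Plin2, the coat protein of lipid droplets, read 9.68 to 10.13 in the late fetal arrays and 10.99 to 11.79 in the newborn arrays on both days. None of these day-to-day differences within a side was tested.

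Fat synthesis split. Of 28 genes of lipogenesis and triglyceride handling 5 were set apart and higher and 4 lower, with a median of 0.08 that turned to -0.06 with equal housekeeping levels and was 0.24 without E17.5 and 0.013 without Day3. The higher count was 3 without E16.5. The lower ones were desaturases and synthesis enzymes. Scd2, the stearoyl-CoA desaturase of fetal liver, read 11.52 and 11.17 at E16.5, 11.72 and 11.37 at E17.5, 8.45 and 7.99 at Day0 and 8.21 and 7.61 at Day3, a difference of -3.38 ± 0.15. Scd1, its adult counterpart, differed by -1.97 ± 0.25, the elongase Elovl6 by -1.51 ± 0.50 and the citrate lyase Acly by -1.07 ± 0.21. The higher ones included Elovl5, an elongase of polyunsaturated fatty acids, which rose by 2.16 ± 0.18, and Mttp, which loads lipoproteins with fat, at 1.03 ± 0.21.

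Cholesterol synthesis had the lowest median of the 41 lists. Of 19 genes 9 were set apart and lower and 0 higher, with a median of -1.19, although 0 were called in the fit over 14 pools. Without Day0 the count was 5 and the median -0.72. Each gene is given by its probe set with the highest mean. Another set differed by -0.07 for Fdps, -0.01 for Fdft1, -0.007 for Lss, -0.26 for Cyp51 and 0.05 for Msmo1. The 2 sets of Idi1 differed by -2.50 and -2.14, and Sqle, Dhcr7 and Nsdhl had 1 set each. Fdps, which makes farnesyl diphosphate, read 10.90 and 10.59 at E16.5, 10.64 and 10.39 at E17.5, 8.88 and 8.45 at Day0 and 8.72 and 8.29 at Day3, a difference of -2.05 ± 0.12. Idi1, an isomerase just upstream, read 9.09 to 9.67 in the late fetal arrays, 6.25 and 5.98 at Day0 and 8.70 and 8.21 at Day3. The lower level at Day0 than at Day3 was shared by Msmo1 (6.72 and 6.63 against 8.52 and 8.0), Cyp51 (5.76 and 5.88 against 7.47 and 7.05), Sqle (7.17 and 6.58 against 8.83 and 8.28) and Fdft1 (7.26 and 6.53 against 8.92 and 8.44). Lss, the cyclase that forms lanosterol, went the other way between the days, with 8.02 and 7.94 at Day0 and 7.63 and 7.66 at Day3. Dhcr7, the last reductase, differed by -1.53 ± 0.42 and Nsdhl by -1.19 ± 0.14. Hmgcs1, the synthase at the head of the pathway, read 8.81 and 8.23 at Day0 but 11.37 and 10.80 at Day3, and so overlapped its late fetal 11.07 to 11.68. Insig2, which holds the sterol sensor in the endoplasmic reticulum, stood higher by 2.21 ± 0.62. At E15.5 the mean over the 19 genes was 8.21, against 8.75 at E16.5, 8.87 at E17.5, 7.465 at Day0 and 8.20 at Day3. Lss read 8.38 at E15.5, between side means of 9.18 and 7.81, and Fdft1 read 8.51, between 9.39 and 7.79, so that both lay nearer to the newborn there. Srebf2, the transcription factor of the pathway, differed by -0.13 ± 0.11 and overlapped.

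**Figure D3:**
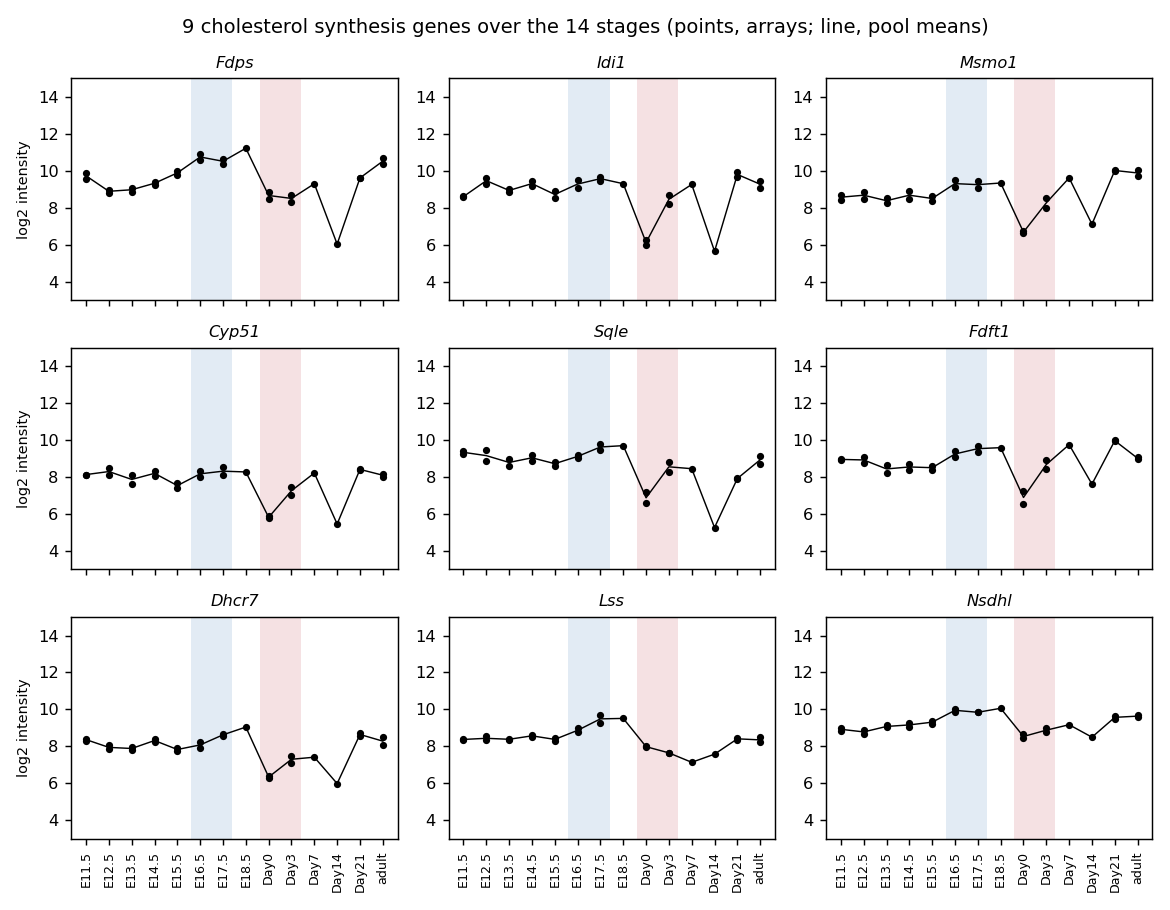
Log2 intensity of the 9 cholesterol synthesis genes set apart, over the 14 stages, with a point for each array and a line through the pool means; blue shading marks the late fetal and red the newborn pools. The E18.5 array lies at the late fetal level or above it, for example at 11.22 for Fdps; most genes are lower at Day0 than at Day3, and several are low again in the single Day14 array, such as Sqle at 5.27.

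Amino acid breakdown stood higher as well. Of 36 genes 17 were set apart and higher and 0 lower, with a median of 1.10, and 7 rose. Tat, the tyrosine aminotransferase long used as a mark of the newborn liver, read 6.61 to 6.65 in the late fetal arrays, 12.07 and 11.49 at Day0 and 10.40 and 9.82 at Day3, and rose by 4.31 ± 0.62. Agxt, an aminotransferase that removes glyoxylate, rose by 3.71 ± 0.25, from 6.63 to 7.18 in the late fetal arrays to 10.19 to 11.12 in the newborn arrays. Mat1a, the methionine adenosyltransferase of adult liver, read 8.70 to 9.75 in the late fetal arrays and 11.72 to 13.29 in the newborn arrays. Hpd, next after Tat in tyrosine breakdown, differed by 2.30 ± 0.55 and Bhmt, which remethylates homocysteine, by 2.01 ± 0.17. Tdo2, the tryptophan dioxygenase, rose by 1.54 ± 0.32 but stayed dim, at 5.11 to 6.49 in the newborn arrays, while the E18.5 array read 9.23 and the Day7 array 11.72. The 3 probe sets of Tdo2 ranged from -0.02 to 1.54.

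In the urea cycle 5 of 10 genes were set apart and higher and 0 lower, with a median of 1.33; without E16.5 the count was 3, and without Day3 1 gene was lower. Asl, the argininosuccinate lyase, read 7.70 to 8.39 in the late fetal arrays, 12.08 and 11.38 at Day0 and 9.80 and 9.35 at Day3. Cps1, the entry enzyme, read 9.97 and 9.71 at E16.5 and 11.52 and 11.24 at E17.5, against 13.44 and 12.89 at Day0 and 11.94 and 11.52 at Day3. The ornithine carrier Slc25a15 differed by 1.96 ± 0.59 and the glutamine synthetase Glul by 1.34 ± 0.38. Arg1, the arginase, read 13.20 and 12.65 at Day0, but its Day3 arrays, 10.73 and 10.26, overlapped those of E17.5. Otc broke the pattern: it read 8.73 to 9.01 in the late fetal arrays, 7.18 and 6.56 at Day0 and 10.23 and 9.71 at Day3. Serine synthesis stood lower, with Phgdh, Psat1 and Psph, its 3 enzymes, all set apart and lower. Phgdh read 9.73 to 9.90 in the late fetal arrays and 8.39 to 8.66 in the newborn arrays, a difference of -1.32 ± 0.06, and Psat1 and Psph differed by -1.87 ± 0.45 and -1.86 ± 0.24. They were the 3 lower genes in a list of 21 on serine synthesis and amino acid stress, which had 0 higher genes and a median of -0.04.

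Most hormone response genes had a positive difference (24 of 30), but 1 of them had the largest fall of the comparison. Of 30 glucocorticoid and cyclic AMP responsive genes 10 were set apart and higher and 1 lower, with a median of 0.84, and 3 rose. The median was 0.33 without E16.5 and 0.37 without Day0. The lower gene was Serpina6, the plasma carrier of corticosteroids. It read 12.30 and 12.07 at E16.5, 11.68 and 11.51 at E17.5, 6.54 and 6.46 at Day0 and 6.29 and 5.82 at Day3, and fell by 5.61 log2 units (SE 0.28), a 48.9-fold difference. At E18.5 it read 9.88, at Day7 10.82 and at Day14 12.06. It was the 1 gene of the 123 whose newborn arrays lay below every other array of the series, with a gap of 3.34 log2 units to the nearest. Sgk1, a kinase induced by glucocorticoids, read 7.01 to 7.47 in the late fetal arrays, 11.61 and 11.29 at Day0 and 9.75 and 9.10 at Day3. Klf9, also a direct glucocorticoid target, read 10.75 and 10.05 at Day0 and 8.97 and 8.46 at Day3, against 6.24 to 8.11 in the late fetal arrays. The 7 probe sets of Klf9 ranged from -0.06 to 2.34. Cebpb differed by 1.18 ± 0.43, Gadd45b by 1.36 ± 0.49, Dusp1 by 1.06 ± 0.07 and Igfbp1, an insulin-repressed binding protein, by 1.43 ± 0.38. Fkbp5, often used as a readout of the receptor, differed by 0.88 ± 0.42 and overlapped, with 8.80 and 8.83 at E17.5 against 8.81 to 9.59 in the newborn arrays. Hsd11b1, which regenerates active glucocorticoid in the liver, read 8.80 to 10.28 in the late fetal arrays, 10.67 and 10.11 at Day0 and 12.15 and 11.67 at Day3, with overlap.

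Cyp3a25, a drug-metabolising P450, had the largest rise of the comparison. Among cytochrome P450 and drug metabolism genes 14 of 46 were set apart and higher and 1 lower, with a median of 0.67, and 5 rose. Without Day0 the counts were 25 and 0 with a median of 1.09, and without Day3 12 and 6 with a median of 0.13; without E17.5 the median was 1.04. Cyp3a25 read 4.37 and 4.43 at E16.5, 4.77 and 5.01 at E17.5, 12.27 and 11.64 at Day0 and 11.47 and 10.78 at Day3, a 119-fold rise of 6.89 ± 0.36. Cyp2e1, which oxidises ethanol and acetone, read 5.87 and 5.58 at E16.5, 7.43 and 7.37 at E17.5 and 11.43 to 13.04 in the newborn arrays, and rose by 5.74 ± 0.73. Cyp3a13 rose by 3.72 ± 0.92 and Cyp2d9 by 4.59 ± 0.22. Cyp3a11, the main adult form, was already at 8.67 to 10.45 in the late fetal arrays and read 12.29 to 13.51 in the newborn arrays. Probes can be shared within these families, which leaves the split between close relatives uncertain. Others stood higher at Day3 than at Day0. Cyp2c37 read 4.33 to 4.57 in the late fetal arrays, 6.81 and 6.35 at Day0 and 10.43 and 9.79 at Day3, with 7.48 at E18.5. Cyp1a2 read 4.95 to 5.09 in the late fetal arrays, 5.13 and 5.15 at Day0 and 8.14 and 7.78 at Day3, with 7.40 at E18.5.

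Of 26 genes of bile acid synthesis and transport 13 were set apart and higher and 0 lower, with a median of 1.13, and 5 rose. The uptake carriers of the blood side stood out, with Slco1b2 rising by 4.53 ± 0.85, from 4.83 to 6.25 to 8.88 to 11.35. The 5 probe sets of Slco1b2 ranged from -0.09 to 4.69. Slc10a1, which takes up bile salts with sodium, read 8.01 and 8.03 at E16.5, 10.13 and 10.06 at E17.5 and 11.41 to 12.23 in the newborn arrays. Abcg5, a sterol exporter, rose by 2.45 ± 0.07, from 5.06 to 5.20 in the late fetal arrays to 7.34 to 7.72. Cyp8b1, which sets the ratio of bile acids, differed by 2.73 ± 0.64. Cyp7a1, the rate-limiting enzyme, read 7.09 to 7.95 in the late fetal arrays, 9.30 and 8.93 at Day0 and 7.63 and 7.68 at Day3, and so overlapped. Among 31 liver transcription factors 5 were set apart and higher and 0 lower, with a median of 0.53; the count was 3 without E16.5 and 8 without E17.5. The bile acid receptor Nr1h4 rose by 1.56 ± 0.17 and the drug sensor Nr1i3 by 2.01 ± 0.14.

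**Figure D4:**
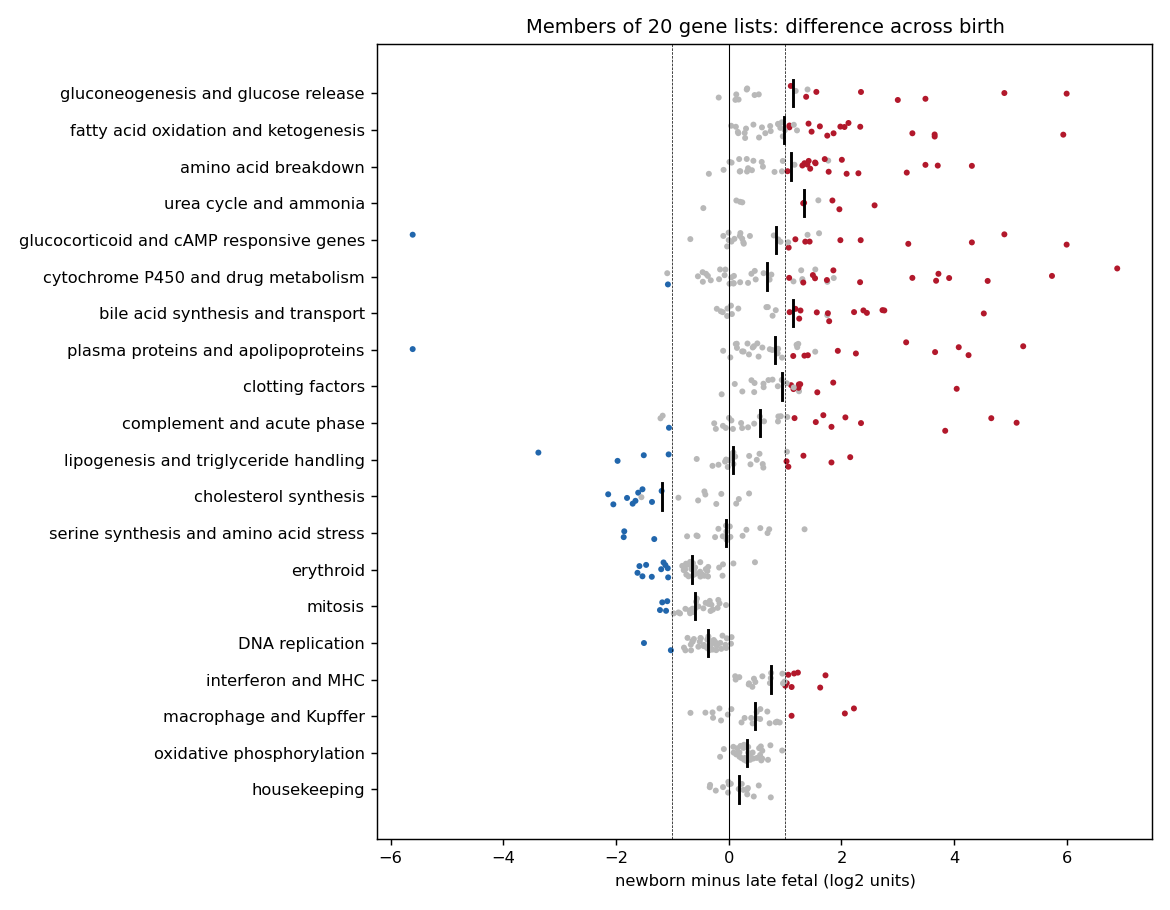
Difference between newborn and late fetal means (log2 units) for every measured member of 20 lists, with a point for each gene and a black bar at the list's median. Red and blue points are set apart and at least 2-fold higher or lower, grey points are not; dashed lines mark a 2-fold difference. The metabolic and secretory lists lie to the right with medians up to 1.33, and cholesterol synthesis lies to the left at -1.19.

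Several secreted proteins rose while albumin was already bright at E16.5. Of 34 plasma proteins and apolipoproteins 10 were set apart and higher and 1, Serpina6, lower, with a median of 0.82, and 4 rose. The higher count was 18 without E17.5 and 16 without Day0, and the median was 0.42 without E16.5 and 0.54 without Day3. Apoa5, a regulator of plasma triglyceride, read 6.72 to 6.87 in the late fetal arrays, 12.75 and 12.14 at Day0 and 11.85 and 11.27 at Day3, and rose by 5.23 ± 0.34. Apoa4 and Apoc3, further apolipoproteins of fat transport, rose by 3.66 ± 0.78 and 3.15 ± 0.34. Fetub, a secreted protease inhibitor, rose by 4.08 ± 0.99, although E17.5, at 8.48 and 8.22, already stood above E16.5, at 5.77 and 5.67. Serpina7, the carrier of thyroxine, read 8.50 and 8.0 at Day0 and 11.02 and 10.47 at Day3 against 4.59 to 5.77 in the late fetal arrays. Alb itself differed by 0.12 ± 0.08. Ang and Rnase4, which lie at 1 locus and share promoters, rose by 4.09 ± 0.40 and 4.03 ± 0.37. Asgr1, the receptor that clears desialylated glycoproteins, rose by 3.78 ± 0.64.

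Of 23 clotting factors 8 were set apart and higher and 0 lower, with a median of 0.94. The count was 4 without E16.5 and 16 without E17.5, and the median 0.52 without E16.5 and 0.61 without Day3. Hrg, a histidine-rich plasma protein, rose by 4.05 ± 0.64. Of 29 complement and acute phase genes 9 were higher and 1 lower, with a median of 0.55, and 3 rose. Without Day0 the higher count was 14 and the median 0.83. Without E16.5 the lower count was 3, and without Day3 it was 2 with a median of 0.14. Serpina3n, an acute phase protease inhibitor, read 6.13 and 6.50, then 6.90 and 7.02 in the late fetal arrays and 11.20 to 12.54 in the newborn arrays, and rose by 5.11 ± 0.37. Fgl1, a hepatocyte secreted protein, read 5.70 and 6.19 at E16.5, 8.65 and 8.58 at E17.5 and 11.65 to 12.24 in the newborn arrays. The lectin Mbl2 rose by 3.84 ± 1.05, and Lrg1, another acute phase protein, by 2.96 ± 0.31. The haemoglobin scavenger Hp differed by 2.35 ± 0.58. C9, which completes the complement pore, was the lower gene, with 7.14 to 7.51 in the late fetal arrays and 6.00 to 6.37 in the newborn arrays.

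Hamp, which encodes the iron hormone hepcidin, read 7.77 and 7.51 at E16.5, 8.73 and 8.47 at E17.5, 12.83 and 12.27 at Day0 and 12.83 and 12.28 at Day3. The 4 newborn arrays lay far above the late fetal ones, with a difference of 4.43 ± 0.36, and the Day7 array was back at 8.44. It was 1 of 5 genes set apart and higher among 23 of iron and metal handling, which had 0 lower and a median of 0.34; without E17.5 the count was 8 and the median 0.51, and the median was 0.12 without Day0 and 0.18 without Day3. Genes of the pathway that controls it stood higher too: Hjv, a coreceptor, by 1.43 ± 0.36, Tfr2, the iron sensor of the hepatocyte, by 1.41 ± 0.26, and Id1, a target of the same BMP signal, by 1.64 ± 0.38.

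Growth factor genes separated in a few members. Of 22 genes of growth hormone and insulin-like growth factors 4 were set apart and higher and 0 lower, with a median of 0.61, and 1 rose. The counts were 7 without E17.5 and 9 without Day0, and the median was 0.29 without E16.5 and 0.31 without Day3. Igfbp2, the main binding protein of early life, read 5.84 and 5.52 at E16.5, 8.39 and 8.17 at E17.5, 12.84 and 12.11 at Day0 and 13.41 and 12.93 at Day3, and rose by 5.84 ± 1.0. Igf1 was lower at Day0, with 6.41 and 6.29, than in the late fetal arrays, with 6.96 to 7.16, and higher at Day3, with 9.49 and 9.10. Socs2, a growth hormone target, read 6.74 and 6.91 at Day0 and 8.90 and 8.85 at Day3 against 5.78 to 6.21. The 6 probe sets of Socs2 ranged from -0.32 to 2.34. Lepr differed by 2.05 ± 0.09, though its 4 probe sets ranged from 0.0006 to 3.88. Igf2 differed by 0.54 ± 0.22 and overlapped. Among 27 imprinted and fetal growth genes 4 were set apart and lower and 1 higher, with a median of 0.01 that was -0.04 without E17.5 and 0.06 without Day3, and 2 fell. Rian, a maternally expressed noncoding RNA, read 9.60 to 10.01 in the late fetal arrays and 7.15 to 7.59 in the newborn arrays and fell by 2.38 log2 units (SE 0.09). Its neighbour Meg3 differed by -0.70 ± 0.20 and was not set apart. Phlda2, a growth restrictor, fell by 1.28 log2 units (SE 0.28), the cell cycle inhibitor Cdkn1c differed by -1.18 ± 0.15, and the amino acid carrier Slc38a4 was the higher gene, at 1.50 ± 0.20.

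Erythroid genes stood lower in the newborn but were still bright. Of 42 erythroid genes 10 were set apart and lower and 0 higher, with a median of -0.65, 2 had a positive difference, and 1 fell. The lower count was 17 with quantile normalization and 20 with equal spread. In whole liver, fewer cells of a type and less RNA in each cell cannot be told apart. Klf1, Tal1 and Nfe2, transcription factors of red cell precursors, differed by -1.08 ± 0.25, -1.20 ± 0.32 and -1.16 ± 0.17. Klf1 read 10.54 to 10.93 in the late fetal arrays and 9.13 to 10.08 in the newborn arrays, against 7.35 in the Day14 array. Gata1 differed by -0.78 ± 0.09. Kel, a blood group protein, differed by -1.47 ± 0.08, the haem enzyme Ppox by -1.13 ± 0.08, the membrane protein Epb42 by -1.08 ± 0.07, and Icam4, an adhesion protein of erythroblasts, fell by 1.53 log2 units (SE 0.27). Alas2, the entry enzyme of erythroid haem synthesis, differed by -0.76 ± 0.10 and kept a level of 10.80 to 11.43. The embryonic globins Hbb-y and Hbb-bh1 differed by -1.62 ± 0.46 and -1.59 ± 0.50, late in a course that began at 13.56 and 13.12 at E11.5. None of 21 granulocyte or 15 megakaryocyte genes was set apart over the 4 pools, although 4 and 3 were higher without Day3, and 2 granulocyte genes were lower without Day0. In the stem and progenitor list 1 of 23 genes was lower.

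Cell division genes were lower with few set apart. Of 29 mitosis genes 4 were set apart and lower and 0 higher, 0 had a positive difference and the median was -0.60. That count ranged from 1 without E16.5 or without Day0 to 7 without E17.5, and was 8 with quantile normalization. Aurka, a spindle kinase, differed by -1.18 ± 0.19, Bub1, of the spindle checkpoint, by -1.22 ± 0.28, and Hmmr and Nuf2 by -1.11 ± 0.22 and -1.09 ± 0.27. Of 39 genes of DNA replication 2 were lower, Ccne2 at -1.51 ± 0.34 and Cdc7 at -1.03 ± 0.30, with a median of -0.36. The lower count was 1 without E16.5 or Day0 and 6 without E17.5, and the median -0.20 without E16.5. Mki67, a general mark of dividing cells, read 11.25 to 11.77 in the late fetal arrays and 10.84 to 11.60 in the newborn arrays, with overlap.

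Markers of resident immune and vessel cells stood higher in part. Of 24 macrophage and Kupffer cell genes 3 were set apart and higher and 0 lower, with a median of 0.46. The count was 5 without Day0 or without Day3, where the median was 0.62 and 0.14, and 2 without E16.5. Vsig4, a complement receptor of Kupffer cells, read 5.50 to 6.57 in the late fetal arrays, 7.71 and 7.51 at Day0 and 9.19 and 8.66 at Day3, and the lectin Clec4f rose by 2.06 ± 0.48. Of 27 endothelial genes 5 were higher (18.5%, against 2.45% of all genes) and 0 lower, with a median of 0.61. The count was 2 without E16.5 or without Day0, and also 2 with quantile normalization, equal housekeeping levels or equal spread. Clec4g, a lectin of sinusoidal endothelium, rose by 1.89 ± 0.34, though its 2 probe sets ranged from -0.31 to 1.89. Lyve1, a hyaluronan receptor of the same cells, differed by 1.47 ± 0.48, and Stab2, a scavenger receptor, by 0.89 ± 0.25, under 2-fold. None of 29 stellate and mesenchymal genes was set apart over the 4 pools, with 3 higher without E17.5, and the bile duct keratin Krt19 differed by 0.30 ± 0.06. Of 23 interferon and MHC genes all had a positive difference and 8 were set apart, with a median of 0.75. That count was 4 with quantile normalization, 3 without Day3 and 13 without Day0, with medians of 0.42 and 1.16. Rsad2, an antiviral enzyme, read 9.21 to 10.05 in the late fetal arrays and 11.12 to 11.75 in the newborn arrays. H2-D1 and H2-K1, class I antigens, differed by 1.62 ± 0.19 and 1.23 ± 0.18. Irf7 differed by 1.0 ± 0.26 and Cd74, the class II invariant chain, by 1.03 ± 0.38. The 9 probe sets of H2-D1 ranged from -0.05 to 1.73.

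Several lists hardly separated. None of 34 genes of oxidative phosphorylation was set apart, with a median of 0.32, and none of 17 housekeeping genes, with a median of 0.18 that was -0.13 with quantile normalization. Of 29 genes of other organs, which could show carried-over tissue, 1 was higher (3.45%, near the 2.45% of all genes). Outside the lists, Tnnc1, the troponin C of slow and heart muscle, read 9.14 to 9.61 in the late fetal arrays and 5.55 to 6.02 in the newborn arrays, and fell by 3.64 log2 units (SE 0.14). It had read 5.80 at E11.5 and 8.51 at E15.5.

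The array of E18.5, which the comparison did not use, was placed between the sides, with 0 at the late fetal mean and 1 at the newborn mean of each gene. For the 445 higher genes its median place was 0.645, with quartiles at 0.323 and 0.911, and 280 of them (62.9%) lay nearer to the newborn. For the 123 lower genes the median was 0.463 and 58 (47.2%) lay nearer to the newborn. The lists took different places. Among their members set apart the median place was 0.950 for complement and acute phase, 0.938 for interferon and MHC, 0.905 for clotting factors and 0.828 for bile acids. It was 0.673 for gluconeogenesis, 0.658 for fat oxidation and 0.455 for hormone response. For cholesterol synthesis it was -0.136, and 0 of 9 members lay nearer to the newborn. Hamp was at 0.18 and Sgk1 at 0.01, whereas Cyp2e1 was at 0.97. The E18.5 pool is a single array of 3 livers and carried muscle transcripts, with Acta1, the skeletal actin, at 9.56 against at most 6.03 in any other pool. Their part in these places was not tested.

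The E15.5 pool lay nearer to the newborn mean for 3 of the 445 higher genes (0.7%) and 15 of the 123 lower genes (12.2%). Levels of the later pools mostly lay on the newborn side. In 353 of the 445 higher genes (79.3%) and 100 of the 123 lower genes (81.3%) every array from Day7 to the adult lay beyond all late fetal arrays. The same late fetal arrays had chosen these genes, which favours such counts. The share over all genes was not computed, so a lasting change cannot be read from these shares alone. The median place of the higher genes was 1.325 at Day7 and 1.09 in the adult. Peaks of the newborn alone were few: 9 of the 445 genes had all 4 newborn arrays above every other array. Rab30, a small GTPase, read 10.06 and 9.34 at Day0 and 6.61 and 6.67 at Day3, against 4.91 to 5.0 in the late fetal arrays. Cirbp, an RNA-binding protein induced by cold, rose by 1.94 ± 0.28, from 6.09 to 6.29 in the late fetal arrays to 8.64 and 8.37 at Day0 and 7.87 and 7.69 at Day3, and its E18.5 array read 5.55. Pou2af1, a transcriptional coactivator of B cells, rose by 1.91 ± 0.16, with 7.18 and 6.74 at Day0, 7.43 and 6.03 at Day3 and 4.74 to 5.18 in the late fetal arrays. Within the newborn side, genes were counted where the arrays of the 2 days did not overlap and their means differed at least 2-fold. Of the 445 genes 55 were higher at Day0 than at Day3 and 60 were lower. By the same count within the late fetal side, 59 were higher at E17.5 than at E16.5 and 1 was lower. The shares over all genes were not computed for these counts.

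**Figure D5:**
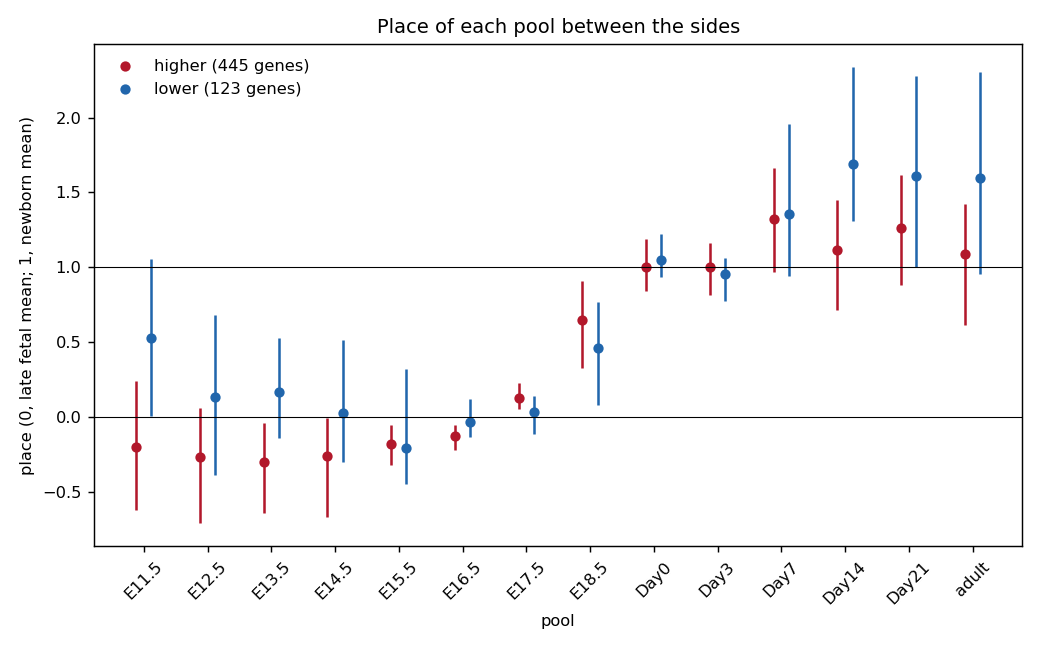
Place of each pool between the late fetal mean (0) and the newborn mean (1), as the median (point) and the range between the quartiles (line) over the 445 higher genes in red and the 123 lower genes in blue. The pools E16.5, E17.5, Day0 and Day3 define the scale; E18.5 lies between the sides at 0.645 and 0.463, and the later pools lie at or above 1.

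Whether the step across birth exceeded the step before it was tested over 6 pools, as the newborn minus late fetal difference less the late fetal minus E14.5 and E15.5 difference. The step across birth passes over E18.5 and spans more days than the step before it. A change at a steady rate would therefore already leave an excess in its own direction. Limma called 0 genes higher and 1 lower (0.0055%), again Eif2s3y (adjusted p = 0.000616), with 1488 genes at an unadjusted p under 0.05. This mark of sex read 4.19 and 4.14 at E14.5 and E15.5, 7.92 and 7.87 at E16.5 and E17.5, and 4.17 and 4.15 at Day0 and Day3. It thus changed at both steps, and the part of sex in this contrast was not tested. With the SE of this fit, the step across birth for G6pc was larger by 5.86 ± 0.41 log2 units. It was larger by 5.77 ± 0.44 for Cyp4a14 and by 5.19 ± 0.55 for Apoa5, though none of these was called. For genes that had begun earlier the estimated excess was near 0 or negative. It was -0.07 ± 1.50 for Slc10a1, -0.13 ± 1.99 for Hpd and -1.84 ± 1.68 for Fbp1, too imprecise to be told from a sizeable excess.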

How the data were processed

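Biotin-labelled material made from total RNA of each liver pool was read on Affymetrix arrays, per the labels' protocols. The authors deposited a single table with intensity values for 45101 probe sets and 25 arrays. RMA, which corrects background, normalizes and summarises probes, is named in the submitters' processing notes; its version is not given in the sources used here. Deposited intensity values are linear, as their range shows, so log2 was taken without a pseudocount. As the spread of the arrays differed, counts are also given under other scalings.

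Of the probe sets 34958 carried 1 gene symbol in the platform annotation, 932 several and 9211 none. Symbols were checked against RefSeq genes of GRCm38.p6, which updated 0 and held no match for 204 sets. The set with the highest mean over pools stood for a gene, giving 18194 genes. Of the 445 higher genes 224 had several sets, and in 62 of these all sets differed at least 2-fold the same way; of the 123 lower genes the numbers were 70 and 10.

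Repeat arrays were averaged, and limma 3.58.1 in R 4.3.3 was fitted to pool means with lmFit and eBayes. P-values measure the spread between stage pools, not between animals, and the pools' number limits precision. Genes were called at an adjusted p under 0.05 over all genes and at least 1 log2 unit. Deviations of same-numbered repeats from their stage means correlated at 0.532 to 0.73 over 6 pairs of stages, so numbers pair arrays across stages technically; the block with them is in the closing section. Figures used Python 3.11.15, pandas 2.3.3 and matplotlib 3.10.9.

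The comparison, the 41 lists (966 of 1084 distinct genes measured) and the alternatives were chosen with earlier results of these data known. The naming rule took the largest called differences, called and bright list members and a set of well-known genes. Since it needs calls, most named genes were chosen after their values were seen, and only genes given by 1 symbol on the array are named.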

Additional observations from a re-analysis of the deposited data

Results flagged for a closer look

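In 3 of the 151 named genes 1 array stood apart from the 4 of its side by Dixon's test, of 302 groups tested. The 4 arrays are 2 pairs of technical repeats, not independent values. The test's usual rate of about 5% flagged by chance therefore does not hold here. Fgf21 read 5.52 in array 1 of E17.5, with the next array at 5.35. Nsdhl read 10.03 in array 1 of E16.5, with the next at 9.87. C9 read 6.00 in array 2 of Day0, with the next at 6.33. These gaps are small beside the differences reported for Nsdhl and C9.

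Probe sets without a single gene symbol also separated, by the same count as for the genes. Of 10092 such sets 103 (1.02%) were higher and 40 (0.396%) lower in the newborn. Muscle transcripts appeared in the E18.5 array, which the comparison did not use. Acta1 read 9.56 there, against at most 6.03 in the other pools, and Myl1, a myosin light chain of fast muscle, read 8.37, against at most 5.78.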

How the results depend on the processing

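The test on 4 pools has few residual degrees of freedom, and its calls moved with the variance model. Higher and lower calls (0 and 1) became 10 and 7 with equal housekeeping levels, 8 and 5 for genes of at least 6 log2 units on a side, 20 and 5 with trend and robust eBayes, 106 and 13 over 14 pools, and 264 and 62 with E15.5 and E16.5 as the fetal side. Day0 alone gave 5 and 0 and Day3 alone 10 higher. Lower calls were 0 with quantile normalization, with the mean of all probe sets and with E18.5 added to the late fetal side, and 2 with equal spread. With stage as a random block over the 8 arrays the calls were 381 and 115, and with the replicate block added 382 and 114, but there technical repeats supply the spread. Leaving out 1 array or pool gave 0 to 10 higher and 0 to 3 lower calls. The change beyond the preceding step gave 5 and 3 calls with equal housekeeping levels, and 0 to 4 higher and 0 to 1 lower without 1 pool. Genes set apart numbered 1887 higher and 1215 lower at any size and 112 and 11 at 2 log2 units. Lower ones were 203 with quantile normalization and 188 with equal spread, and 1 pool left out gave 353 to 754 higher and 120 to 205 lower. The scalings with equal spread, the counts with 1 pool left out and the other sizes were chosen after seeing the data.

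Of the 151 named genes 145 kept their direction in every alternative run. The other 6 turned sign. With Day0 alone, which is the same as leaving out Day3, Fgf21 was at -0.20 and Igf1 at -0.72, and with Day3 alone Otc was at 1.10. Leaving out 1 pool gave -0.20 to 1.69 for Fgf21, -0.72 to 2.22 for Igf1 and -2.0 to 1.10 for Otc. Msmo1 was at 0.0515 without sets named _s, _x or _a, and Tdo2 at -0.16 with E18.5 on the late fetal side. Alb was at -0.0164 with equal housekeeping levels, -0.0168 with E18.5 added, and -0.38 with equal spread, and ranged from -0.0148 to 0.26 with 1 array left out, at -0.0063 without array 1 of Day3. For dim genes the signal over background limits the fold.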

Other observations

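Genes of autophagy, which frees amino acids in the starved newborn, stood higher in a few members. Of 22 genes of autophagy and lysosome 4 were set apart and higher and 0 lower, with a median of 0.13 that was -0.02 with quantile normalization, and 1 rose. Ctsl, a lysosomal protease, read 10.59 to 11.43 in the late fetal arrays, 13.51 and 12.97 at Day0 and 12.49 and 11.89 at Day3. Atg3, which lipidates the autophagosome protein LC3, rose by 1.08 ± 0.09, while Sqstm1, a cargo receptor, differed by 1.10 ± 0.10 and Gabarapl1 by 1.36 ± 0.40. The 2 probe sets of Atg3 ranged from -0.18 to 1.08, and the 2 of Sqstm1 from 0.09 to 1.10.

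Of 22 genes of liver zonation 8 were set apart and higher and 0 lower, with a median of 0.88. The count was 5 without E16.5 and 11 without E17.5 or without Day0, and without Day3 1 gene was lower and the median 0.12. They came from both ends of the lobule, with Pck1 and Cps1 of the portal side and Cyp2e1, Cyp1a2 and Glul of the central side. Of 19 clock genes 1 was higher, or 2 without Day0 or without Day3. It was the repressor Nr1d2, with 5.35 to 5.96 in the late fetal arrays, 8.15 and 7.72 at Day0 and 6.89 and 6.54 at Day3; the hour of collection is not in the labels. Of 23 immediate early genes 2 were higher, Dusp1 and Zfp36, the latter by 1.47 ± 0.29, and 4 were without Day0. None of 22 antioxidant and hypoxia genes was set apart over the 4 pools, with 2 lower without E16.5 and 1 higher and 3 lower without Day0.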
